A study of Mus musculus with 14 samples.

Results

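DNA replication and nucleotide supply genes encode the proteins that prepare replication origins, unwind and copy DNA, make its building blocks and repackage the copy as chromatin. The set held 38 genes, named one by one and matched by symbol through the platform annotation, out of 19937 genes with a probe set of their own. Each gene was read from the probe set with a single gene symbol and the highest mean over the 14 arrays. All 38 were found, and all 38 passed the filter on low signal (a log2 value over 6.76 on at least 2 arrays) that left 13641 genes for testing. Orc1 and Gins1 passed it through thymus arrays alone, since each of their spleen values was below 6.76. By step the set held 10 genes of origin licensing, 6 of helicase activation, 6 of the replicative polymerases, 8 of the sliding clamp and lagging strand, 5 of nucleotide supply, and 3 made up of both chromatin assembly genes and the transcription factor E2f1.

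The arrays measured RNA of T cells sorted from C57BL/6 mice that were ENK KO or wild type (WT). Spleen CD8+ cells came from ENK KO mice (n = 5) and WT mice (n = 4), and thymus CD4+CD8+ cells from ENK KO mice (n = 2) and WT mice (n = 3). The spleen ENK KO arrays are numbered 31, 25 and 28, from males of 7, 9 and 6 months, and 3 and 6, from females of 2 months. The spleen WT arrays are 34, 37 and 40, from males, and 22, labelled female, all at 7 months. The thymus ENK KO arrays are 29, from a male of 7 months, and 1, from a female of 2 months. The thymus WT arrays are 32 and 38, from males, and 7, from a female, all at 7 months. The labels do not spell out ENK, give no other allele or treatment, and do not say in which cells the gene was removed; the series title names Engrailed-2, encoded by En2. No label says that every sample is a different animal, so the p-values reflect how far these samples spread and no more.

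Replication starts when the origin recognition complex, Cdc6 and Cdt1 load the ring-shaped Mcm helicase onto DNA, and Cdc45 and the GINS proteins later switch that helicase on. Polymerase alpha and primase then lay primers, polymerases delta and epsilon extend them around the Pcna clamp, and ribonucleotide reductase and thymidylate synthase supply the deoxynucleotides. CD4+CD8+ thymocytes arise from rapidly dividing precursors and most of them no longer divide, while most CD8+ T cells of an unchallenged spleen are resting. In sorted bulk cells such as these, fewer dividing cells and less RNA per dividing cell cannot be told apart.

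Many replication genes are known targets of E2F transcription factors, so promoters were searched for 4 E2F-type strings, TTTCGCGC, TTTGGCGC, TTTCCCGC and TTTGCCGC, on both strands. The windows ran from 250 bases before to 50 bases after each start in RefSeq (GRCm38.p6), and 32 of the 38 genes had one. The strings occurred in 12 of 36 windows of the set (33.3%) and in 2.26% of all 32851 windows. By gene, 12 of the 32 (37.5%) held one in some window, against 4.38% of the 10823 tested genes with a window. The stretches below show where the strings lie in the 120 bases before the start of the 4 genes that hold one there, with the matching bases in capitals. On the minus strand a match reads as its reverse complement, and the match farthest from the start of Mcm6 is a pair that overlaps.
Mcm6: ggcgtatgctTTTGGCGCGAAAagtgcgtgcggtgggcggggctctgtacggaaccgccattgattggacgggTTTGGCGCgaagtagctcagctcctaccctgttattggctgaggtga
Orc1: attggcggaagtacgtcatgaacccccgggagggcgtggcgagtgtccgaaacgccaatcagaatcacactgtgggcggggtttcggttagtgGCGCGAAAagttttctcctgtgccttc
Rfc3: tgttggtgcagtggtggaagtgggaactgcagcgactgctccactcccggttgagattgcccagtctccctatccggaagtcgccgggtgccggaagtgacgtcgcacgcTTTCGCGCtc
Gins3: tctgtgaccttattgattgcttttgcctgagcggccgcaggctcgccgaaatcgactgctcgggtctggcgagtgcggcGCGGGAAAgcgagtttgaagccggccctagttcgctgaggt
These lie at chr1:128359706-128359825 (minus strand) for Mcm6, chr4:108579334-108579453 (plus strand) for Orc1, chr5:151651209-151651328 (minus strand) for Rfc3 and chr8:95633439-95633558 (plus strand) for Gins3. CCAAT, searched on both strands, was in 55.6% of the set's windows and 37.4% of all windows. The cell cycle strings TTTGAA and TTCGAA, searched likewise, were in 16.7% of the set's windows and 19.2% of all windows. Counted by gene, CCAAT was in 59.4% of the 32 genes and 41.6% of the tested genes with a window. TTTGAA or TTCGAA was in 18.8% of the 32 genes and 16.2% of those tested genes.

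Array medians lay between 7.14 and 7.25 on the log2 scale. Array 28 of spleen ENK KO went against its CD8+ label, with Cd4 at 12.20 and Cd8a at 6.78, against 6.61 to 6.92 and 12.06 to 12.53 on the other 8 spleen arrays. It also had Foxp3, the factor of regulatory T cells, at 9.87, where the other spleen arrays had 7.34 to 7.48. Array 22 of spleen WT went against its labelled sex, with Xist at 5.90 and the Y-linked Eif2s3y at 10.17. All 5 thymus arrays carried Cd4 (12.94 to 13.13) and Cd8a (12.89 to 13.23). En2 was at 6.14 and 6.01 in ENK KO thymus and at 6.01 on each WT thymus array. In spleen it was at 6.12 to 7.87 in ENK KO and 6.19 to 6.93 in WT, and no source used here says whether its probes fall within the deleted sequence. Repeated deposited values were common: 14 of the 38 genes had the same value on at least 2 thymus arrays, as had 65.7% of genes tested, so an SD near 0 can stem from repeats.

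Between tissues, spleen CD8+ cells of WT mice had lower levels of 20 of the 38 genes than WT CD4+CD8+ thymocytes, and a higher level of 1, Cdt1. The 20 covered all 5 genes of nucleotide supply, all 3 of chromatin assembly and E2f1, 5 of 6 of helicase activation and 5 of 10 of licensing. They covered 1 of 6 polymerase genes and 1 of 8 clamp and lagging-strand genes. These calls are limma tests at an adjusted p under 0.05, which called 38.2% of all genes tested lower and 30.5% higher. The median difference of the 38 genes was -0.34 on the log2 scale, against -0.04 over all genes tested. Of the 421 genes that passed the filter through thymus alone, 409 were called lower, a direction the filter itself favours. Without them, and so without Orc1 and Gins1, 18 of 36 genes were lower (50%), against 36.3% of genes tested, and the median was -0.22, against -0.03. By step that left 4 of 5 genes of helicase activation and 4 of 9 of licensing. Spleen and thymus values did not overlap for 21 genes with lower spleen values (39.2% of genes tested), Orc1 and Gins1 included. They did not overlap for 5 genes with higher spleen values (32.6%). Leaving out array 28, which enters the estimate of the spread, left 20 genes lower (38.8% of genes tested) and raised the higher ones to 3 (31.3%). Leaving out array 22 left both counts as they were. Mitotic genes, markers of dividing cells, were lower in WT spleen as well, in 14 of 14 tested. Of these, 6 passed the filter through thymus alone (Bub1, Bub1b, Kif11, Nusap1, Ncapg and Cenpf), which leaves 8 of 8 and a median difference of -1.01. The part of dividing cells in the result was not tested.

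**Figure D1:**
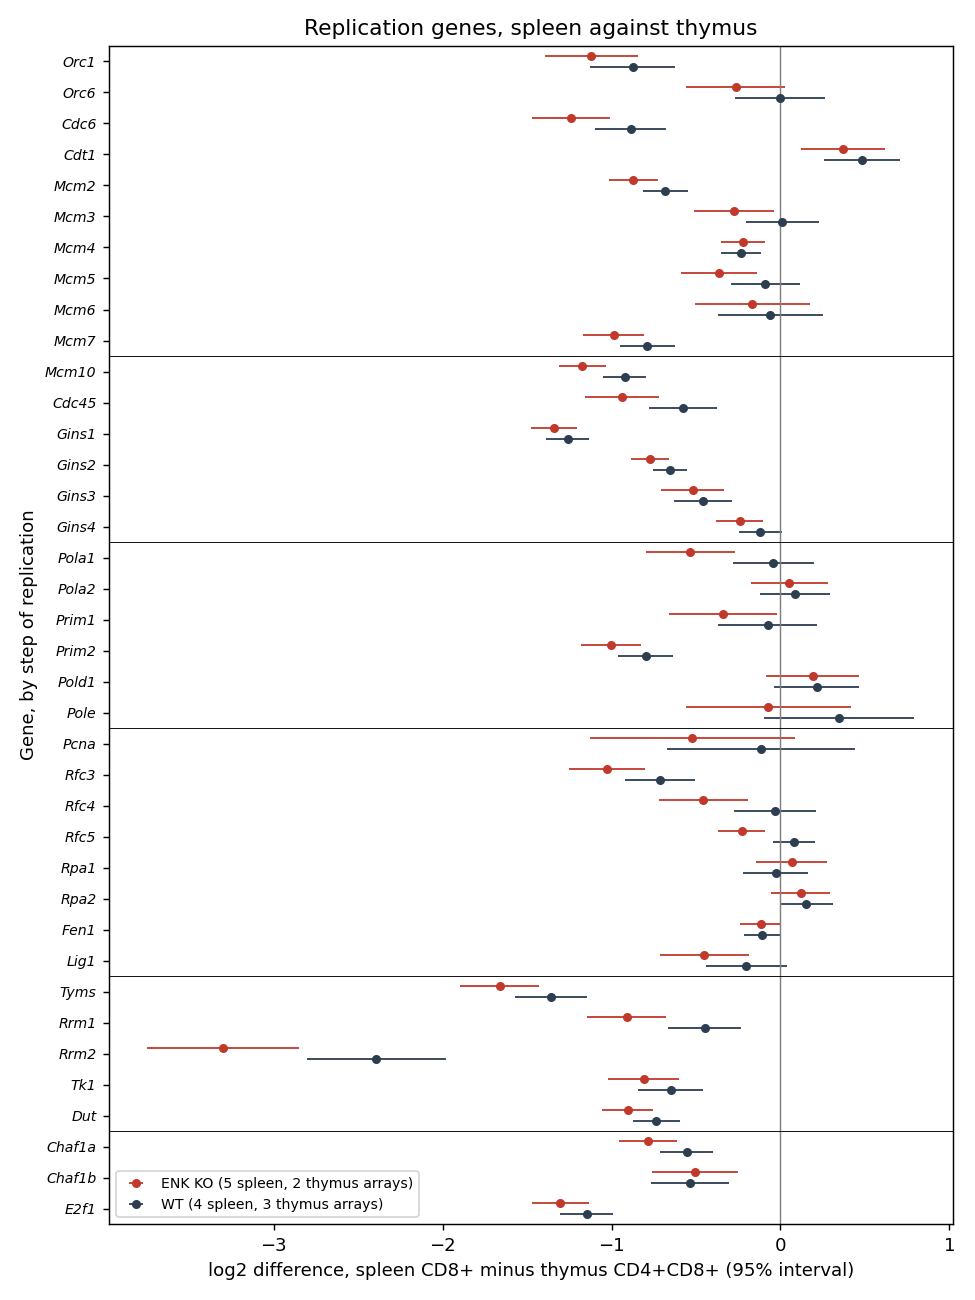
Log2 difference between spleen CD8+ and thymus CD4+CD8+ cells (x axis) for the 38 genes grouped by step (y axis, lines between steps), in ENK KO mice (red, 5 spleen and 2 thymus arrays) and WT mice (dark blue, 4 spleen and 3 thymus arrays). Points are limma estimates and bars their 95% intervals; Rrm2 lies farthest to the left at -3.30 in ENK KO and -2.39 in WT, and Cdt1 lies to the right of 0 in both.

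Among nucleotide supply genes, Rrm2, the small subunit of ribonucleotide reductase that is made mainly in dividing cells, had 6.80, 7.23, 6.80 and 6.68 in WT spleen (arrays 40, 37, 34 and 22), against 9.35, 9.46 and 9.01 in WT thymus (arrays 38, 7 and 32). Every WT spleen value lay well below every WT thymus value. The log2 difference was -2.39 ± 0.19 (SE), a 5.25-fold lower level in spleen, with a limma adjusted p of 1.5e-07. Tyms, which makes the thymidine nucleotide from its uridine form, had 7.63, 7.45, 7.56 and 7.48 in WT spleen, against 9.08, 8.84 and 8.74 in WT thymus. The groups again did not overlap, and the difference was -1.36 ± 0.10 (SE; limma adjusted p = 6.3e-08). Dut, which removes dUTP, Tk1, which salvages thymidine, and Rrm1, the large reductase subunit, were lower by smaller amounts, at -0.74, -0.65 and -0.45. Tk1 had a second probe set, which gave -0.67.

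Helicase activation followed, with a median log2 difference of -0.61, or -0.58 without Gins1. Gins1, a subunit of the GINS complex, had 5.77, 5.79, 5.60 and 5.75 in WT spleen, against 7.04, 6.90 and 7.02 in WT thymus. All its spleen values lay under the filter and it was tested through its thymus values, so the difference of -1.26 ± 0.06 (SE) describes these arrays and is not counted as support. Mcm10, which helps activate the loaded helicase, had 6.81, 6.74, 6.78 and 6.77 in WT spleen, against 7.78, 7.65 and 7.65 in WT thymus. It fell by 0.92 on the log2 scale (SE 0.06; limma adjusted p = 1.8e-08), with no overlap. The spleen values of Mcm10 lay close to the filter, so the size is not exact. Gins2 (-0.65), Cdc45 (-0.58) and Gins3 (-0.46) were also lower, whereas Gins4 (-0.12; limma adjusted p = 0.085) did not pass the test.

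The licensing genes divided into members that were lower in spleen and members that were not. Mcm7, a helicase subunit, had 9.39, 9.29, 9.38 and 9.24 in WT spleen, against 10.02, 10.21 and 10.11 in WT thymus (-0.79 ± 0.08, SE; limma adjusted p = 8.9e-07). Mcm2, another subunit, had 9.37, 9.24, 9.34 and 9.51 in WT spleen, against 10.09, 9.98 and 10.07 in WT thymus (-0.68 ± 0.06, SE; limma adjusted p = 4.7e-07). Neither gene's groups overlapped. The helicase loader Cdc6 (-0.89) and Mcm4 (-0.23) were lower too, as was the origin recognition subunit Orc1 (-0.88), whose spleen values all lay under the filter. Differences for the remaining helicase subunits Mcm3 (0.01, interval -0.20 to 0.23), Mcm5 (-0.09, -0.30 to 0.11) and Mcm6 (-0.06, -0.37 to 0.25) did not pass the test, nor did that of Orc6 (-0.00). Intervals here and below are 95% intervals of the limma estimate.

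Cdt1, the partner of Cdc6 in loading the helicase, went the other way. It had 9.07, 9.22, 9.46 and 9.06 in WT spleen, against 8.66, 8.80 and 8.70 in WT thymus, a log2 difference of 0.48 ± 0.10 (SE; limma adjusted p = 0.0011). All WT spleen values exceeded all WT thymus values. Cdt1 was again higher in spleen within ENK KO mice (0.37; limma adjusted p = 0.012).

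Of the polymerase genes, Prim2, the large primase subunit, had 8.38, 8.38, 8.36 and 8.23 in WT spleen, against 9.18, 9.16 and 9.07 in WT thymus. It was lower without overlap (-0.80 ± 0.07, SE; limma adjusted p = 7.5e-07). Prim1, the catalytic primase subunit, differed by -0.07, Pola1, the catalytic subunit of polymerase alpha, by -0.04 and its partner Pola2 by 0.09, none past the test. Pold1, the catalytic subunit of polymerase delta, had 8.60, 8.72, 8.59 and 8.60 in WT spleen, against 8.36, 8.49 and 8.39 in WT thymus. Although its groups did not overlap, the difference of 0.21 ± 0.12 (SE) had a limma adjusted p of 0.12, which was 0.016 without array 28. Pole, the catalytic subunit of polymerase epsilon, differed by 0.35 (limma adjusted p = 0.15, and 0.029 without array 28).

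Among clamp and lagging-strand genes, Rfc3, a clamp loader subunit, had 7.07, 7.38, 7.60 and 7.38 in WT spleen, against 8.04, 8.14 and 8.02 in WT thymus. Its groups were apart (-0.71 ± 0.10, SE; limma adjusted p = 2.1e-05). Fen1, the nuclease that trims Okazaki fragments, had 7.22, 7.13, 7.13 and 7.13 in WT spleen, against 7.20, 7.27 and 7.33 in WT thymus. These groups overlapped and the difference of -0.11 ± 0.05 (SE) did not pass (limma adjusted p = 0.070). The ligase Lig1 (-0.20), the clamp Pcna (-0.12), the loader subunits Rfc4 (-0.03) and Rfc5 (0.08) and the single-strand binding subunits Rpa1 (-0.03) and Rpa2 (0.15) did not pass either. For Pcna the interval ran from -0.67 to 0.44, and RefSeq lists pseudogenes of it, so its probes could in part read other copies.

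E2f1, the transcription factor of the set, had 7.13, 7.20, 7.22 and 7.20 in WT spleen, against 8.37, 8.37 and 8.26 in WT thymus. The difference was -1.15 ± 0.07 (SE; limma adjusted p = 1.4e-08). Chaf1a, the large subunit of the chromatin assembly factor CAF-1, had 6.89, 6.76, 7.03 and 6.89 in WT spleen, against 7.53, 7.48 and 7.33 in WT thymus (-0.56 ± 0.07, SE; limma adjusted p = 1.8e-05). Its partner Chaf1b was lower by a like amount (-0.53), and the groups of all 3 genes were apart.

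The E2F-type strings did not divide lower genes from the rest: 5 of 16 genes that were lower in WT spleen and had a window held one (31.2%), against 7 of 16 that were not lower (43.8%). The lower genes with a string include Orc1, which passed the filter through thymus arrays alone. Of the genes whose stretches are printed above, Mcm6, with 3 matches in its stretch, did not pass the test between tissues, and Orc1, Rfc3 and Gins3, with 1 each in theirs, were lower in spleen. Rfc3 held another match beyond its start. TTTGAA or TTCGAA was in 5 of those 16 lower genes (31.2%) and in 1 of the 16 others (6.25%). CCAAT was in 10 of the lower genes (62.5%) and in 9 of the others (56.2%). Of tested genes with a window, 16.2% held TTTGAA or TTCGAA and 41.6% held CCAAT.

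ENK KO mice showed the same lower genes between tissues and more. In them 27 of the 38 genes were lower in spleen CD8+ cells and 1 was higher, where limma called 37.1% of genes tested lower and 27.4% higher. The 27 included each of the 20 genes lower in WT, and added Mcm3, Mcm5, Gins4, Pola1, Rfc4, Rfc5 and Lig1. The median difference was -0.52, against -0.06 over all genes tested. Without the genes that passed the filter through thymus alone, 25 of 36 were lower (69.4%), against 35.2% of genes tested, with a median of -0.51. The 8 mitotic genes left by the same step were all lower, with a median of -1.23. Rrm2 had 6.94, 6.85, 6.70, 6.80 and 6.54 in ENK KO spleen (arrays 31, 6, 28, 25 and 3), against 10.50 and 9.63 in ENK KO thymus (arrays 29 and 1). That is a 9.83-fold lower level (-3.30 ± 0.21, SE; limma adjusted p = 2.1e-08). The spleen values of Rrm2 lay close to the filter, on both sides of it, so this fold has no exact size either.

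The result in ENK KO mice depended on array 29 of the thymus: without it the median was -0.40. Without array 28 of the spleen 26 genes were lower (37.2% of genes tested) and 2, Cdt1 and Pold1, higher (27.9%). Mcm3 then no longer passed (limma adjusted p = 0.071). Whether the difference between tissues itself differed by genotype was tested as the spleen genotype effect minus the thymus genotype effect, which uses all 4 groups. Limma called 0 of the 38 genes there at an adjusted p under 0.05 in either direction (0% of genes tested higher and 0.00733% lower). At an unadjusted p under 0.05 it called 9 lower and 0 higher, with 1.73% and 1.26% of genes tested. The 7 added genes are therefore not shown to differ between genotypes.

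**Figure D2:**
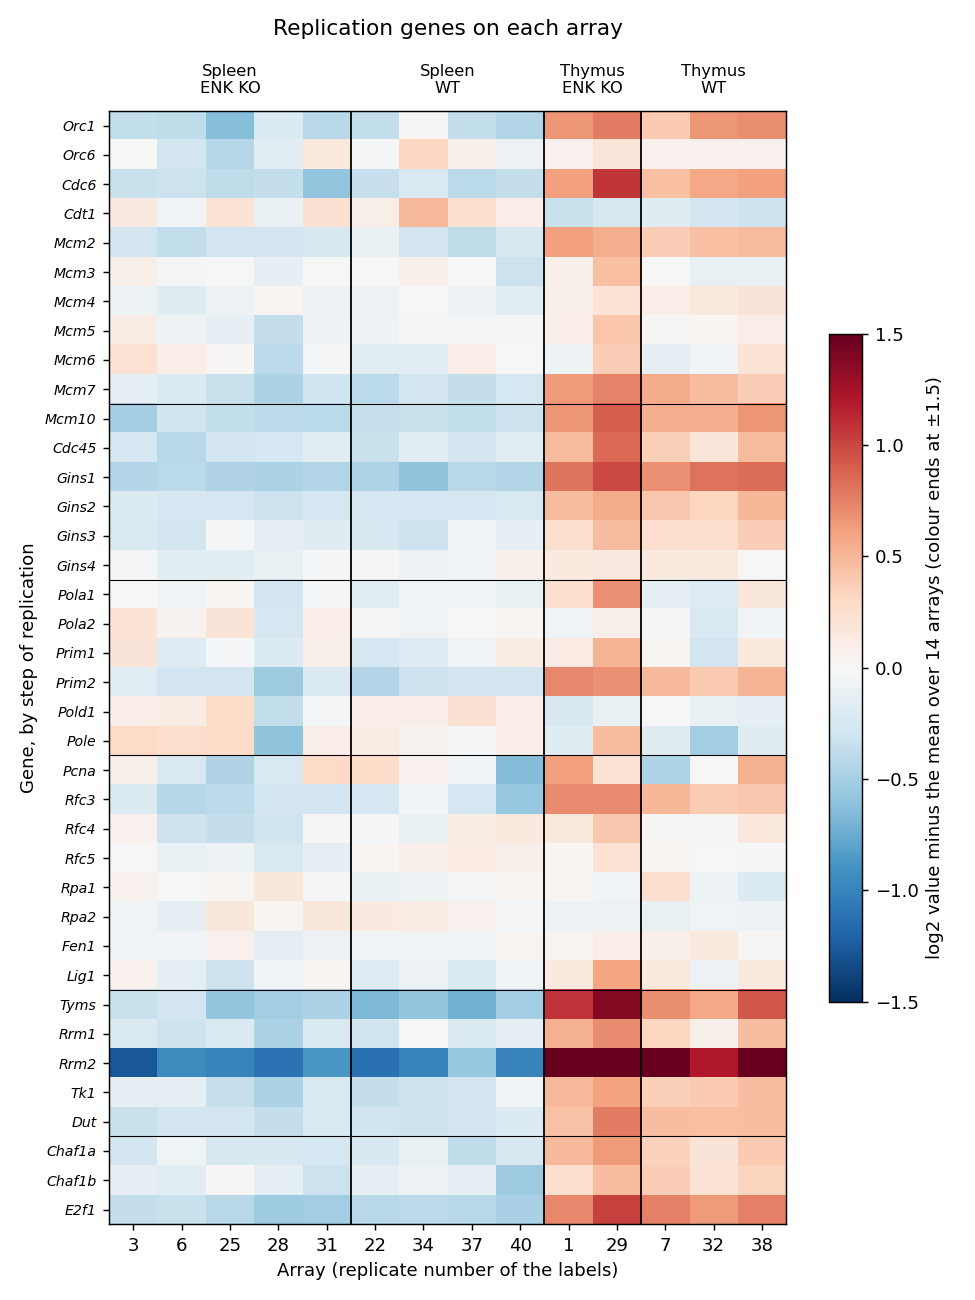
Log2 value of each of the 38 genes (rows, by step) minus its mean over the 14 arrays, on each array (columns, numbered as in the labels, spleen left of thymus and ENK KO left of WT); red is above and blue below the gene's mean, and colours end at 1.5. Rrm2, Tyms, E2f1 and Gins1 are red on all 5 thymus arrays and blue on all 9 spleen arrays, and thymus ENK KO array 29 has the deepest red for most genes.

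In CD4+CD8+ thymocytes, ENK KO arrays tended to have higher values of replication genes than WT arrays, but no gene of the set passed the test. The largest differences were those of Rrm2, Pola1 and Tyms. Limma called 0 of 38 genes at an adjusted p under 0.05 (0.0147% of genes tested higher and 0% lower). At an unadjusted p under 0.05 it had 13 genes above WT and 0 below, against 1.8% and 1.73% of genes tested. The difference was above 0 for 33 of the 38 genes and for 47% of genes tested. The ENK KO and WT values did not overlap for 11 genes with higher ENK KO values (4.04% of genes tested) and 0 with lower values (5.21%). Tk1, among the 11, had groups that overlapped in its second probe set. The median difference was 0.15 on the log2 scale, against 0.00 over all genes tested.

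Nucleotide supply had the largest median difference of the 6 steps, 0.33, and 3 of its 5 genes had an unadjusted p under 0.05. Rrm2 was at 10.50 and 9.63 in ENK KO thymus (arrays 29 and 1), against 9.35, 9.46 and 9.01 in WT thymus (arrays 38, 7 and 32). Array 29 stood 0.87 above array 1, and both exceeded every WT value. The difference was 0.79 ± 0.23 (SE; limma unadjusted p = 0.0042, adjusted p = 0.91). Tyms was at 9.52 and 9.23 in ENK KO thymus, against 9.08, 8.84 and 8.74 in WT thymus, again without overlap. Its difference was 0.49 ± 0.12 (SE; limma unadjusted p = 0.0012, adjusted p = 0.50). Rrm1 differed by 0.33 (limma unadjusted p = 0.015), Dut by 0.15 and Tk1 by 0.14. The second probe set of Tk1 gave -0.02, so the direction of Tk1 rests on the probe set chosen.

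The polymerase genes had a median difference of 0.29, with 2 of 6 at an unadjusted p under 0.05. Pola1 was at 8.51 and 8.07 in ENK KO thymus, against 7.9993, 7.68 and 7.64 in WT thymus (0.52 ± 0.13, SE; limma unadjusted p = 0.0020, adjusted p = 0.64). Prim2 was at 9.36 and 9.40 in ENK KO thymus, against 9.18, 9.16 and 9.07 in WT thymus (0.24 ± 0.09, SE; limma unadjusted p = 0.019, adjusted p = 1). Neither gene's groups overlapped, and for Prim2 the ENK KO arrays were alike. Pole had 8.13 and 7.49 in ENK KO thymus, against 7.49, 7.49 and 7.15 in WT thymus, so that array 29 alone stood above WT (0.43 ± 0.24, SE). Prim1 differed by 0.34, Pola2 by 0.11 and Pold1 by -0.09, which was the lowest difference of the set.

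**Figure D3:**
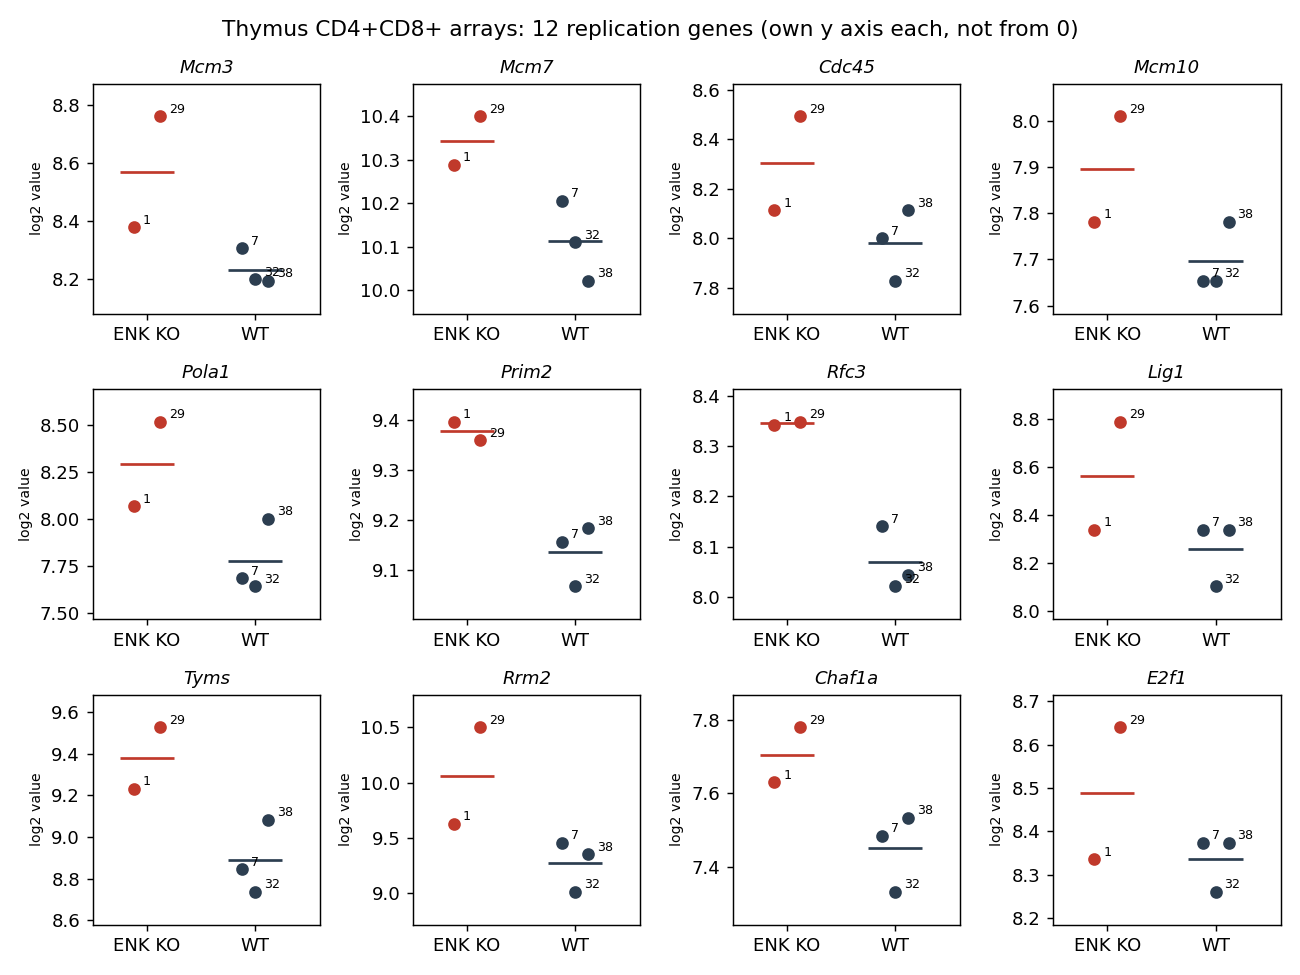
Log2 values (y axis, a scale of its own in each panel that does not start at 0) of 12 replication genes in ENK KO (left, red, n = 2) and WT (right, dark blue, n = 3) CD4+CD8+ thymocytes, each point an array with its number and each line a group mean. Array 29 is the upper ENK KO point in every panel except that of Prim2, and for E2f1 array 1 lies within the WT values.

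Among clamp and lagging-strand genes the median difference was 0.17. Rfc3 was at 8.35 and 8.34 in ENK KO thymus, against 8.04, 8.14 and 8.02 in WT thymus, with both ENK KO values above all WT values (0.28 ± 0.11, SE; limma unadjusted p = 0.030, adjusted p = 1). Lig1 was at 8.79 and 8.34 in ENK KO thymus, against 8.34, 8.34 and 8.10 in WT thymus (0.30 ± 0.13, SE; limma unadjusted p = 0.040, adjusted p = 1). For Lig1 array 1 had the same value as the upper WT arrays. Pcna was at 12.41 and 12.80 in ENK KO thymus, against 12.73, 11.73 and 12.19 in WT thymus; these groups overlapped (0.39 ± 0.31, SE), and its second probe set gave 0.25. Rfc4 differed by 0.22 and Rfc5 by 0.12, and Rpa1 (-0.00), Rpa2 (0.00) and Fen1 (-0.01) had differences close to 0.

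Licensing and helicase activation had medians of 0.15 and 0.11. Mcm3 was at 8.76 and 8.38 in ENK KO thymus, against 8.20, 8.31 and 8.20 in WT thymus (0.34 ± 0.12, SE; limma unadjusted p = 0.014, adjusted p = 1). Mcm7 was at 10.40 and 10.29 in ENK KO thymus, against 10.02, 10.21 and 10.11 in WT thymus (0.23 ± 0.09, SE; limma unadjusted p = 0.024, adjusted p = 1). The ENK KO values of both genes lay above the WT values. Cdc6 (0.29; limma unadjusted p = 0.027) completed the 3 licensing genes at that level. Mcm5 (0.21), Mcm2 (0.15), Mcm6 (0.14), Orc1 (0.13) and Orc6 (0.06) had smaller positive differences, and those of Mcm4 (-0.01) and Cdt1 (-0.03) were just below 0.

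Cdc45 was at 8.49 and 8.11 in ENK KO thymus, against 8.11, 8.0007 and 7.83 in WT thymus (0.32 ± 0.11, SE; limma unadjusted p = 0.013, adjusted p = 1). Mcm10 was at 8.01 and 7.78 in ENK KO thymus, against 7.78, 7.65 and 7.65 in WT thymus (0.20 ± 0.07, SE; limma unadjusted p = 0.014, adjusted p = 1). For both, array 29 stood above WT and array 1 was level with WT array 38. The GINS genes differed by 0.04 to 0.12. Chaf1a was at 7.78 and 7.63 in ENK KO thymus, against 7.53, 7.48 and 7.33 in WT thymus, without overlap (0.25 ± 0.09, SE; limma unadjusted p = 0.012, adjusted p = 1). E2f1 was at 8.64 and 8.34 in ENK KO thymus, against 8.37, 8.37 and 8.26 in WT thymus (0.15 ± 0.09, SE; limma unadjusted p = 0.10, adjusted p = 1), and Chaf1b differed by 0.05.

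Array 29 stood above array 1 for most of the set. It was above the WT mean for 36 of the 38 genes (43% of genes tested) with a median difference of 0.25, and it alone was the highest thymus array for 29 genes (12.3% of genes tested). Array 1 was above the WT mean for 29 of 38 genes (45.4% of genes tested) with a median of 0.07. WT arrays set against the mean of the other WT arrays were above it for 29 (array 38; 41.9% of genes tested), 21 (array 7; 46.4%) and 9 (array 32; 41.1%) of the 38 genes. Array 29 was above array 1 for 32 of the 38 genes, against 35.3% of genes tested, by a median of 0.18. Without array 29 the differences of Rrm2, Tyms and Pola1 were 0.35, 0.34 and 0.29. Array 29 shares its age and sex with WT arrays 32 and 38, and array 1 was the younger female.

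**Figure D4:**
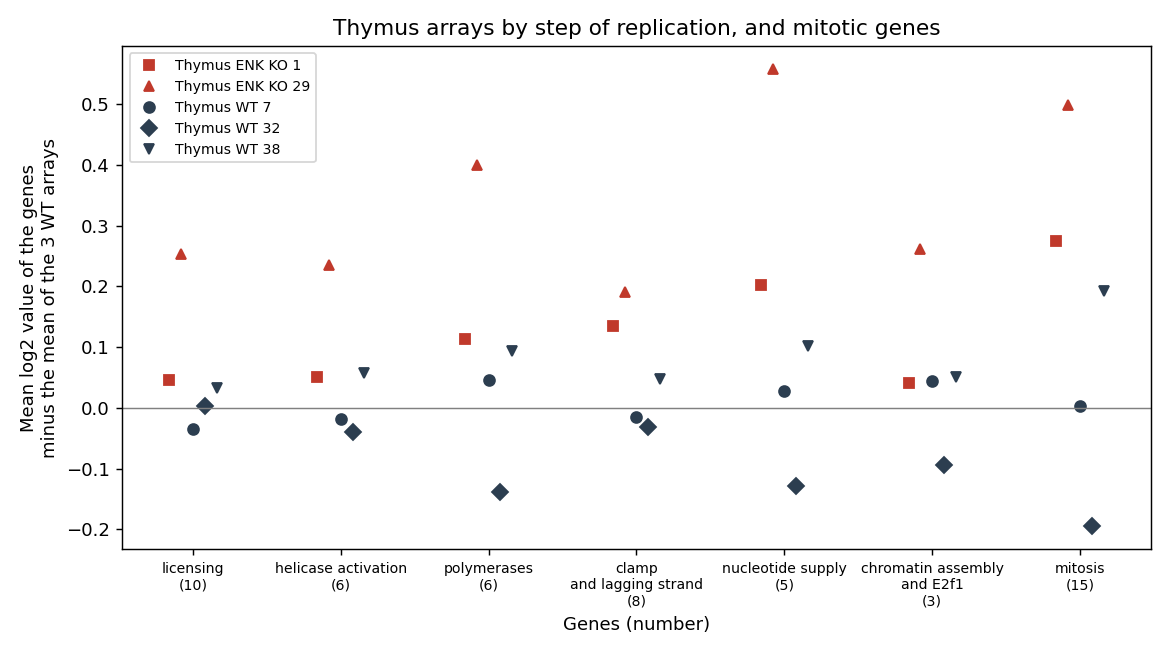
Mean log2 value over the genes of each step, and over 15 mitotic genes, minus the mean of the 3 WT arrays (y axis) for each thymus array; red symbols are ENK KO arrays 1 and 29 and dark blue symbols are WT arrays. Array 29 is the highest array for every list, by 0.56 above the WT mean for nucleotide supply and 0.50 for mitosis, and array 1 is above every WT array for polymerases, clamp and lagging strand, licensing, nucleotide supply and mitosis but not for helicase activation or for chromatin assembly and E2f1.

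Mitotic genes, a marker list of dividing cells, moved with the replication genes across the thymus arrays. The mean log2 value of the 15 mitotic genes was 8.90 and 8.67 on ENK KO arrays 29 and 1, against 8.59, 8.40 and 8.20 on WT arrays 38, 7 and 32. The mean of the 38 replication genes was 8.97 and 8.76 on the ENK KO arrays, against 8.73, 8.66 and 8.61 on the WT arrays, in the same order. Of 14 mitotic genes tested, 10 were above WT at an unadjusted limma p under 0.05 and 0 passed after adjustment, with a median difference of 0.39, where limma had 1.8% of all genes tested above WT at that p. Their part in the thymus result was not tested.

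Markers of early thymocytes, the dividing cells before the CD4+CD8+ stage, had a mean of 7.94 and 8.06 on the ENK KO arrays, against 7.85, 7.77 and 7.77 on the WT arrays. Of 8 such markers tested 2 were above WT at an unadjusted limma p under 0.05 (1.8% of genes tested), and 3 defining ones were not above the filter: Kit at 6.32 on each thymus array, Hhex and Erg. The 8 markers had a median difference of 0.32, with single genes from -0.04 to 0.69. Il2ra, which is also on the list for regulatory T cells, was not among the 2. It was at 8.71 and 9.34 in ENK KO thymus, against 8.19, 8.63 and 8.18 in WT thymus, with the higher value on array 1. Its value of 11.14 on spleen array 28 enters the estimate of the spread. The part of such cells was not tested. Lists for regulatory T cells, effector CD8 cells, B cells, myeloid cells, erythroid cells and stroma had 0 genes at an unadjusted limma p under 0.05 in thymus. CD4+CD8+ markers had list means of 12.79 and 12.87 in ENK KO thymus and 12.79 to 12.84 in WT thymus.

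In spleen CD8+ cells no gene of the set passed the test between genotypes. Limma called 0 of 38 genes at an adjusted p under 0.05 (0% of genes tested higher and 0.00733% lower). At an unadjusted p under 0.05 it had 1 gene lower and 0 higher, against 4.93% and 3.45% of genes tested. The difference was above 0 for 16 of the 38 genes and 45% of genes tested. The median difference was -0.02, against -0.01 over all genes tested, and single genes ran from -0.21 (Orc6) to 0.18 (Tyms).

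The gene below WT was Rfc5, singled out after its values were seen. It had 9.69, 9.71, 9.59, 9.74 and 9.82 in ENK KO spleen (arrays 31, 6, 28, 25 and 3), against 9.90, 9.94, 9.90 and 9.85 in WT spleen. Every ENK KO value lay below every WT value (-0.19 ± 0.05, SE; limma unadjusted p = 0.0031, adjusted p = 0.60). It was the 1 gene of the set with lower ENK KO values and no overlap (0.814% of genes tested), and 0 had higher ones (0.894%). Rrm2 had 6.94, 6.85, 6.70, 6.80 and 6.54 in ENK KO spleen, against 6.80, 7.23, 6.80 and 6.68 in WT spleen, and these groups overlapped (-0.11, interval -0.48 to 0.25). E2f1 differed by -0.00 (interval -0.14 to 0.13) and Mcm7 by 0.03 (-0.11 to 0.17).

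Array 28 was the lowest of the 9 spleen arrays for 16 of the 38 genes (17.9% of genes tested). Pole was at 7.06 there and at 7.77 to 7.96 on the other ENK KO spleen arrays. Without it limma called 0 of 38 genes at an adjusted p under 0.05 (0% of genes tested higher and 0.0147% lower). At an unadjusted p under 0.05 it then had 2 above WT, Tyms and Pola2, and 1 below, Rfc5, with 4.3% and 5.42% of genes tested. Dropping array 22 as well left 0 genes past the adjusted limma test.

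Other genes of the pathway, 72 listed by role and 68 of them tested, went both ways between tissues, with shares near those of all genes tested. In WT mice 25 were higher in spleen (36.8%) and 28 lower (41.2%), against 30.5% and 38.2% of genes tested. In ENK KO mice 20 were higher (29.4%) and 28 lower (41.2%), against 27.4% and 37.1%. Of 17 genes of nucleotide metabolism outside the set, 13 were higher (76.5%) and 2 lower (11.8%) in WT spleen, and 12 were higher (70.6%) and 2 lower (11.8%) in ENK KO spleen, with the same background shares. The 5 deoxynucleotide genes of the set were all lower. Of the 68 genes, Dna2, Dscc1 and E2f8 passed the filter through thymus arrays alone. Without such genes 25 of 65 were lower in WT spleen (38.5%), against 36.3% of genes tested. In ENK KO spleen 25 of 65 were lower as well (38.5%), against 35.2%. Samhd1, which breaks down deoxynucleotides, averaged 11.83 ± 0.18 in WT spleen (SD, n = 4) and 6.47 ± 0.00 in WT thymus (SD, n = 3). The difference of 5.36 (limma adjusted p = 5.0e-11) compares spleen with thymus values that lay under the filter.

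The genes named next had the smallest p in their direction, which is not the order of size. Mthfd1, a folate enzyme that feeds purine and thymidylate synthesis, differed by 2.25 between WT spleen and WT thymus, and the purine enzyme Atic by 1.20. Pold2, a second subunit of polymerase delta, differed by 1.28. Dck, the kinase that salvages deoxycytidine, went the other way (-2.37), as did E2f2, an E2F activator (-2.59), Atad5, which unloads Pcna (-1.42), and Rpa3, the small subunit of the single-strand binding complex (-1.15). The limma adjusted p was 4.7e-09 or smaller for all of these except Atic, at 3.4e-08. In ENK KO mice the genes with the smallest p were Samhd1 (5.05), Mthfd1 (2.03), Pold2 (1.02) and Gart (0.87), another purine enzyme, upward, and E2f2 (-2.68), Atad5 (-1.55), Dck (-2.41) and E2f8, an E2F repressor, downward. E2f8 was at 5.67 to 6.03 on the spleen arrays, all under the filter, so its difference of -3.08 has no exact size. Larger differences with larger p included those of Dctd (2.39) and Top2a (-3.03), named after their values were seen.

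Between genotypes the wider pathway had 0 genes past the adjusted limma test in either tissue. In thymus 9 of 68 (13.2%) were above WT at an unadjusted p under 0.05 and 0 below, against 1.8% and 1.73% of genes tested. The smallest p-values were those of Top2a (0.77), the topoisomerase that untangles replicated DNA, the histone chaperone Asf1b (0.46), the nuclease Dna2 (0.27) and the origin-firing factor Ticrr (0.36). The lowest p-values below WT were those of Chtf8 (-0.19), Pold4 (-0.20), Orc3 (-0.12) and Orc5 (-0.10), none under 0.05. In spleen 2 were above WT (2.94%), the Mcm-binding protein gene Mcmbp (0.10) and Rnaseh2b (0.11), and 2 below (2.94%), Pold2 (-0.14) and Rnaseh2a (-0.21). Both shares were under those of all genes tested, 3.45% and 4.93%. Rnaseh2a and Rnaseh2b code for parts of an enzyme that removes RNA from DNA.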

How the data were processed

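RNA of 14 sorted T cell samples was measured on Affymetrix mouse arrays. The authors deposited log2 values for each probe set, which they made with RMA, per the submitters' processing notes. The sources used here do not give the software, its version, the genome build or whether RMA ran on all arrays at once. Of 28213 probe sets, 21640 had 1 gene symbol, 1321 several and 5252 none in the table used. The number of arrays limits the precision, and scanner intensities were not used here.

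A model of 4 group means was fitted to all 14 arrays with limma 3.58.1 (R 4.3.3, eBayes with a trend), with Benjamini-Hochberg adjustment over 13641 genes. The filter was the 40th percentile of all values. Up to 2 genes per step with the smallest p in the thymus genotype and WT tissue comparisons have every array's value, and up to 4 other pathway genes per direction are named. Others described were chosen after their values were seen. The members and lists were chosen with earlier results of these data known. The steps were tested on simulated data. Alternatives were other filters, normalizations, probe set rules, variance models, covariates and samples; medians under them were added after seeing the data. RefSeq promoters were absent from the table used for Gins1, Gins2, Gins4, Mcm4, Pole and Prim2.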

Additional observations from a re-analysis of the deposited data

Results flagged for a closer look

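In groups of 4 or 5 spleen arrays, 10 of 78 tests of the 38 genes and their group means found the highest or lowest array far from the others. For values without repeats chance gives about 1 in 20. Here 17 of the 38 genes had the same value on at least 2 spleen arrays, as had 50.6% of genes tested, so that rate does not hold exactly. In ENK KO spleen, array 28 was low for Pola1 (7.54, others 7.76 to 7.86) and for Pole (7.06, others 7.77 to 7.96); this is the array with Cd4 and Foxp3 signal. Array 31 was low for Cdc6 (6.55, others 6.77 to 6.83), and array 6 was high for Chaf1a (7.07, others 6.86 to 6.89). In WT spleen, array 40 was low for Chaf1b (7.87, others 8.27 to 8.33) and, by small margins, high for Gins2 (7.90, others 7.88) and Fen1 (7.22, others 7.13). Array 34 was high for Orc1 (6.50, others 6.05 to 6.11), array 37 high for Pold1 (8.72, others 8.59 to 8.60) and array 22 low for Prim2 (8.23, others 8.36 to 8.38). The cause of these single values was not tested. For Gins2 and Fen1 the other arrays repeat a deposited value, and for Orc1, Prim2 and Chaf1a some of the other arrays do.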

How the results depend on the processing

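Counts of genes passing the adjusted limma test stayed at 0 for both genotype comparisons under every alternative that left more than 1 array in each group. So did the count for the spleen genotype effect minus the thymus genotype effect. Between tissues the counts ran from 18 to 25 in WT, against 21. In ENK KO the count was 25 with the filter at the 60th percentile and 29 with the mean of probe sets, against 28. The shares of genes tested under these alternatives are not given here. A filter at the 60th percentile, which left 34 of the 38 genes, gave a WT median of -0.22, as did leaving out Orc1 and Gins1, which was chosen after seeing the data. Dropping the 2-month-old animals left array 29 as the only ENK KO thymus array. The median was then 0.25 for the thymus genotype, which is the same comparison as without array 1. It was -0.32 for the spleen genotype effect minus the thymus genotype effect, and -0.66 for spleen minus thymus in ENK KO. Leaving out each array in turn gave ranges of 0.068 (without thymus ENK KO array 29) to 0.25 (without array 1), -0.31 to -0.11 and -0.66 to -0.40 for these 3 medians. Without array 29 the thymus difference of E2f1 turned to -0.00089, and without array 1 it was 0.30. The median in spleen between genotypes turned to 0.016 with median centring and 0.00038 without array 28. Pold1 and Fen1 passed between WT tissues in some alternatives. Chaf1a, Gins1 and Fen1 have no value under the stricter filter. No paired analysis was possible because no replicate number occurs in more than 1 group.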
